A study of Mus musculus with 12 samples.

Results

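The tricarboxylic acid (TCA) cycle enzymes examined here were 9 genes taken by symbol from a table of 55335 genes: Cs, Idh1, Idh2, Idh3a, Ogdh, Suclg1, Fh1, Mdh1 and Mdh2. All 9 were found and all 9 passed the filter on low values described with the first comparison. The table came from bulk RNA-seq of 12 libraries of mouse BMDMs, that is, bone marrow-derived macrophages, obtained by culturing marrow cells with macrophage colony-stimulating factor. There were 4 groups of 3 libraries each: wild-type BMDMs left unstimulated (control), wild-type BMDMs given lipopolysaccharide (LPS) for 4 hours and then ATP for 30 minutes (LPS+ATP), and Nlrp3-/- BMDMs in the same 2 states. LPS followed by ATP is a standard way to activate the NLRP3 inflammasome. The comparisons set LPS+ATP against control and Nlrp3-/- against wild-type BMDMs. The labels gave the stimulation times above, whereas the study's methods described longer times for both steps, and the labels were followed. By the study's methods the BMDMs came from C57BL/6 mice aged 8 weeks, the wild-type mice and the germline knockout mice were obtained from different suppliers, and adherent cells were taken as macrophages without a sort. The study's methods call its replicates independent in general, but neither they nor the labels stated whether the 3 libraries of a group came from separate mice or cultures, so that p-values measure only the spread between these libraries, which may be technical.

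The TCA cycle oxidizes acetyl groups in the mitochondrial matrix, yielding carbon dioxide and the reduced cofactors that feed the respiratory chain. Citrate synthase opens the cycle, isocitrate and 2-oxoglutarate dehydrogenases carry out its oxidative decarboxylations, and succinyl-CoA synthetase, succinate dehydrogenase, fumarase and malate dehydrogenase return carbon to oxaloacetate. In macrophages exposed to LPS the cycle is known to be remodelled, with build-up of citrate-derived itaconate and of succinate, which act as signals in inflammation. Idh1 and Mdh1 encode cytosolic isoenzymes that exchange metabolites with the cycle, and Idh2 and Mdh2 encode their mitochondrial counterparts.

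By GENCODE M21 (GRCm38), which is not the GRCm39 build named in the submitters' processing notes, all 9 are protein-coding genes. Cs (chr10:128337734-128362479, plus strand) encodes citrate synthase. Idh1 (chr1:65158616-65186500, minus strand) and Idh2 (chr7:80094846-80115392, minus strand) encode NADP-linked isocitrate dehydrogenases, and Idh3a (chr9:54586334-54604661, plus strand) encodes the catalytic alpha subunit of the NAD-linked enzyme of the cycle. Ogdh (chr11:6291633-6356642, plus strand) encodes the first component of the 2-oxoglutarate dehydrogenase complex, and Suclg1 (chr6:73248382-73276911, plus strand) encodes the alpha subunit shared by both succinyl-CoA synthetases. Fh1 (chr1:175600374-175625635, minus strand) encodes fumarase, Mdh1 (chr11:21556787-21572367, minus strand) cytosolic malate dehydrogenase and Mdh2 (chr5:135778480-135790398, plus strand) mitochondrial malate dehydrogenase. An exon of Mdh1 overlapped one of Wdpcp on the opposite strand, and Wdpcp was listed at 0.429 to 1.34 FPKM. Cs had a near copy, Csl, with 90.4% identity over 54.5% of the transcript, and Csl was listed at no more than 0.0223 FPKM.

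Promoter windows are shown for 3 members on which the comparisons described next turn: Idh2 and Fh1, whose fall with stimulation differed between the genotypes, and Mdh2, which rose. The windows searched were the 250 bases before the outermost RefSeq start (GRCm38.p6), of which the stretch upstream of the gene as GENCODE places it is printed, written 5′ to 3′ on the gene's strand in lower case, with CCAAT boxes in capitals (CCAAT, or ATTGG where the box lay on the other strand). That stretch held 250 bases for Fh1, 208 for Idh2 and 81 for Mdh2, and 0 for Mdh1, whose window lies inside the gene by GENCODE and is not printed. The box of Idh2 crosses the end of the printed stretch, which therefore shows none in capitals.
Idh2 (chr7:80115393-80115600, minus strand): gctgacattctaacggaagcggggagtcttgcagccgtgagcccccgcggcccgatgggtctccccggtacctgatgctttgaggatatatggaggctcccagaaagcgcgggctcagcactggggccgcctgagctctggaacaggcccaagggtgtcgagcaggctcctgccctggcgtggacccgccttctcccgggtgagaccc
Fh1 (chr1:175625636-175625885, minus strand): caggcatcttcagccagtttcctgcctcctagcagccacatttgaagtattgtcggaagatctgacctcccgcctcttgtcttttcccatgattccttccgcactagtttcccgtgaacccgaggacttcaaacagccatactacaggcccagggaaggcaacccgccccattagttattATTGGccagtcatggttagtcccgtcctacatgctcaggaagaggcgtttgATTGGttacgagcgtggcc
Mdh2 (chr5:135778399-135778479, plus strand): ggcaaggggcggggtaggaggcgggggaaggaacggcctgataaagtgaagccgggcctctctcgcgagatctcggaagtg

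RefSeq windows were matched for 8 of the 9 members, all but Idh3a. Of 6 motifs searched on both strands, only the CCAAT box was found in them. It was present in 6 of the 8 windows (Cs, Idh1, Idh2, Ogdh, Fh1 and Mdh1) and in 33.8% of the 32851 windows of the same length genome-wide. Suclg1 and Mdh2 held none. The motifs of NRF1 (0.782% of all windows), ERR (TCAAGGTCA, 0.387%), ETS (CCGGAAGT, 2.88%), the E-box (CACGTG, 6.02%) and NF-kB (1.41%) were in no member window. A match is a description of the letters and not a binding site, and the absence of these exact letters says nothing of the factors.

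Across the libraries, sums of FPKM (fragments scaled to exon length in kilobases and to the library's mapped fragments) ranged from 283278 to 299393. Total read numbers were not given in the sources used here, and the steps between low values placed the relative depth of the libraries between 1.0 and 1.22. Nlrp3 was listed at 0 in all 6 Nlrp3-/- libraries and at 9.24 to 33.6 FPKM in the 6 wild-type libraries. The 6 macrophage markers, mostly Lyz2, summed to 19775 to 20951 FPKM in wild-type control and 11450 to 11512 after LPS+ATP. In Nlrp3-/- BMDMs they summed to 18895 to 19140 and 10879 to 11129. The single markers did not all follow that sum. Stimulation raised 2 and lowered 4 in wild-type BMDMs, and raised 3 and lowered 3 in Nlrp3-/- BMDMs. Between genotypes, 4 of the 6 were lower and 0 higher in Nlrp3-/- than in wild-type control. After LPS+ATP 3 were lower and 0 higher, and with median-ratio scaling 6 were lower in each state. The 4 dendritic cell and 3 T cell markers were each under 1 FPKM throughout. Xist was listed at 32.8 to 56.3 FPKM in Nlrp3-/- libraries and at no more than 0.0416 in wild-type libraries. In the Nlrp3-/- libraries alone, 4 Y-linked genes were at 0. Genotype therefore cannot be told apart from the sex of the donors, nor from their supplier, which differed by the study's methods. All 7 fibroblast and all 7 neutrophil or granulocyte precursor markers were higher in Nlrp3-/- BMDMs in both states, with fibroblast sums of 162 to 168 against 1188 to 1205 FPKM in control and neutrophil sums of 334 to 370 against 1791 to 1841. In bulk RNA, a smaller share of a cell type and less RNA per cell cannot be told apart.

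In unstimulated wild-type BMDMs, cytosolic isocitrate dehydrogenase had the highest mean of the 9 transcripts and the NAD-linked Idh3a the lowest. FPKM divides by the merged length of all exons of a gene in this table, and on that scale Idh1 was highest, at 82.6 ± 17.2 FPKM (SD, n = 3), followed by Mdh1 at 47.8 ± 6.08. Ogdh (35.6 ± 1.34), Mdh2 (33.2 ± 1.11) and Cs (32.8 ± 0.969) came next, and the libraries of neighbours among these 3 overlapped. Idh2 (26.1 ± 0.244), Fh1 (15.5 ± 0.636), Suclg1 (10.5 ± 0.772) and Idh3a (6.34 ± 0.271) followed with no overlap between neighbours. Divided by the length of the principal transcript instead, the mean of Idh1 remained highest (99.4) and that of Idh3a lowest (13.4). Mdh2 (81.3) and Cs (64.8) then came before Mdh1 (60.0) and Ogdh (47.1), so the order in between depends on the length used. On that scale the libraries of Idh1 and Mdh2 overlapped. Mdh1 was the exception among the members, its values implying a length of 2662 bases in place of the merged 2567. Ratios of FPKM between libraries within 1 gene do not depend on the length used. Log2 differences of FPKM + 1, used in the comparisons below, do depend on it.

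After LPS+ATP, the order was different. In wild-type BMDMs Mdh2 became the most abundant of the 9 on the merged-exon scale, at 45.4 ± 0.807 FPKM, ahead of Cs (30.9 ± 0.706) and Ogdh (29.6 ± 0.569), whose libraries overlapped, and Idh1 came next at 25.4 ± 0.656. Mdh1 (15.2 ± 0.814), Idh2 (7.82 ± 0.387), Suclg1 (6.98 ± 0.20), Fh1 (6.17 ± 0.30) and Idh3a (3.57 ± 0.145) followed without overlap. In control Nlrp3-/- BMDMs the order was Idh1 (67.1 ± 20.3), Mdh2 (38.1 ± 0.0980), Mdh1 (35.3 ± 0.371), Cs (35.1 ± 0.888), Ogdh (29.9 ± 1.61), Idh2 (25.4 ± 1.49), Fh1 (14.1 ± 0.244), Suclg1 (11.1 ± 0.501) and Idh3a (8.32 ± 0.299), with overlap between Mdh1 and Cs only. In stimulated Nlrp3-/- BMDMs Mdh2 again led at 49.2 ± 0.973 FPKM, and Cs (30.5 ± 1.03), Idh1 (29.0 ± 4.97) and Ogdh (27.5 ± 1.12) each overlapped their neighbour. Below them stood Mdh1 (18.2 ± 1.65), Idh2 (10.4 ± 0.661), Suclg1 (7.94 ± 0.214), Fh1 (7.93 ± 0.414) and Idh3a (5.35 ± 0.0107), and Suclg1 and Fh1 overlapped. Per principal transcript, the mean of Mdh2 (93.1) came before that of Idh1 (80.8) in control Nlrp3-/- BMDMs, where their libraries overlapped. After LPS+ATP Idh3a (11.3) came before Fh1 (10.2) in these BMDMs. The 9 enzymes together summed to 290.5 ± 22.5 FPKM in wild-type control and 171 ± 1.88 after LPS+ATP, against 264 ± 19.1 and 186 ± 5.62 in Nlrp3-/- BMDMs.

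**Figure D1:**
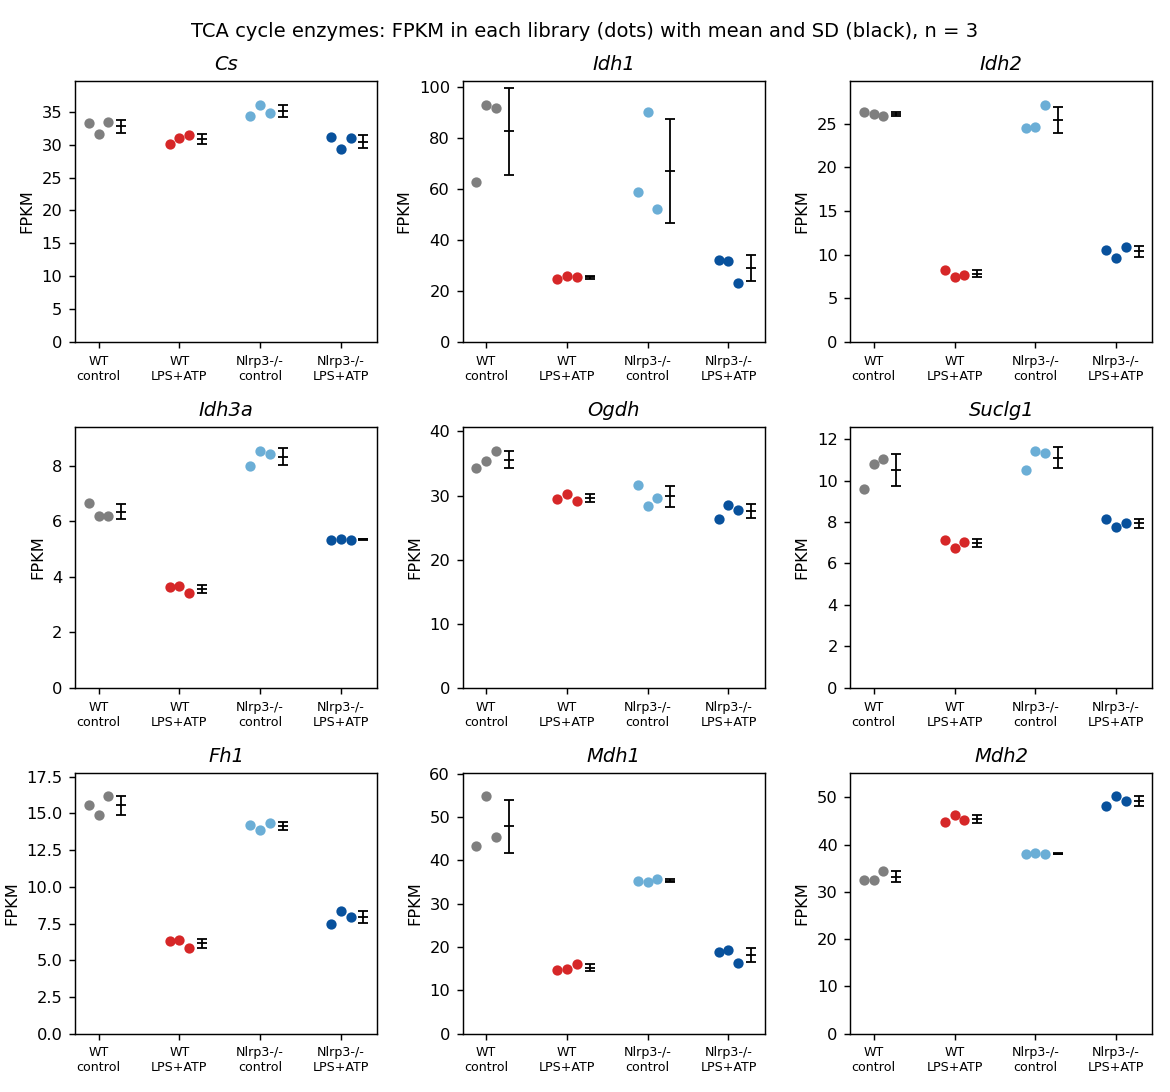
FPKM of the 9 TCA cycle enzymes (y axis, from 0) in each of the 12 libraries (dots, by group on the x axis), with the group mean and SD in black (n = 3). Mdh2 lay higher in both LPS+ATP groups than in their controls, Idh1, Idh2, Idh3a, Suclg1, Fh1 and Mdh1 lay lower, and Idh1 was the most scattered, between 52.1 and 93.0 FPKM in the 6 control libraries.

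In wild-type BMDMs, LPS+ATP lowered most transcripts of the cycle and raised mitochondrial malate dehydrogenase. The largest falls were in both NADP-linked isocitrate dehydrogenases, in cytosolic malate dehydrogenase and in fumarase, each 2.52-fold to 3.34-fold lower in mean FPKM. By limma on log2(FPKM + 1) over the 12622 genes that reached 1 FPKM in at least 3 libraries, with Benjamini-Hochberg adjustment over all of them and a threshold of 0.05, 7 of the 9 were lower, 1 was higher and 1 did not pass. Over all genes tested, 53.1% were called lower, 23.3% higher and 76.4% in either direction, so that the number of members called is to be read against a very wide response. The median log2 fold change was -0.68 over the 9 members and -0.25 over all genes tested, and 7 of the 9 lay below the latter. Past a fold limit of 1 on the log2 scale there were 4 of 9, all lower, against 11.2% of all genes called lower and 19.4% in either direction past that limit. The groups did not overlap in 9 of 9 members and in 78.1% of all genes. Rescaling the libraries by the median of gene ratios shifted the median of all genes by 0.24 to near 0. It gave 2 members higher (Mdh2 and Cs) and 6 lower, with 34.9% of all genes higher and 36.3% lower.

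Among the isocitrate dehydrogenases, Idh2 was listed at 26.4, 26.1 and 25.9 FPKM in wild-type control and at 8.25, 7.50 and 7.70 after LPS+ATP. Every stimulated library lay well under the lowest control, and this mitochondrial NADP-linked enzyme fell by 1.62 on the log2 scale (SE 0.05, limma adjusted p = 1.80e-10). Idh1, its cytosolic counterpart, went from 62.7, 93.0 and 92.0 FPKM to 24.7, 25.9 and 25.7, a fall of 1.64 (SE 0.21, limma adjusted p = 2.05e-05). The control libraries of Idh1 were widely spread and the stimulated ones were close together. Its pooled within-group SD of 0.29 on the log2 scale was larger than that of 96.0% of the 6553 genes with a mean of at least 5 FPKM. Idh3a, of the NAD-linked enzyme, went from 6.65, 6.20 and 6.18 FPKM to 3.65, 3.66 and 3.40, a smaller fall of 0.68 (SE 0.04, limma adjusted p = 6.91e-08).

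The malate dehydrogenases moved in opposite directions. Mdh1, the cytosolic form, was at 43.4, 54.8 and 45.3 FPKM in control and at 14.7, 14.8 and 16.2 after LPS+ATP, a fall of 1.58 on the log2 scale (SE 0.08, limma adjusted p = 1.11e-08). Mdh2, the form of the cycle itself, was at 32.6, 32.6 and 34.5 FPKM and rose to 44.7, 46.3 and 45.1, by 0.44 (SE 0.03, limma adjusted p = 1.43e-07). All 3 stimulated libraries lay above all 3 controls for Mdh2 and below them for Mdh1. Fh1, whose product makes malate from fumarate, was at 15.6, 14.9 and 16.2 FPKM in control and 6.31, 6.37 and 5.82 after LPS+ATP, a fall of 1.21 (SE 0.05, limma adjusted p = 9.27e-10).

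The remaining members changed less. Suclg1 went from 9.61, 10.8 and 11.1 FPKM to 7.14, 6.76 and 7.05, a fall of 0.52 on the log2 scale (SE 0.05, limma adjusted p = 3.72e-06). Ogdh, a control point of the cycle, went from 34.3, 35.5 and 37.0 to 29.5, 30.3 and 29.2 FPKM, a fall of 0.26 (SE 0.05, limma adjusted p = 3.54e-04) that became a difference of 0.05 with median-ratio scaling. This fall was the size of the median over all genes. Cs, the entry enzyme, was at 33.3, 31.7 and 33.4 FPKM in control and at 30.1, 31.1 and 31.4 after LPS+ATP. Its difference of -0.08 (95% interval -0.17 to -0.00) did not pass (limma adjusted p = 0.0539). With median-ratio scaling it was 0.22 and passed as higher (limma adjusted p = 2.16e-04). Relative to the median of all genes, Cs stood 0.17 higher, Mdh2 0.69 higher and Idh1 1.38 lower.

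In Nlrp3-/- BMDMs the same stimulation lowered 8 of the 9 transcripts in listed FPKM and raised Mdh2, but the direction of Cs and Ogdh depended on the scaling. By limma, 53.8% of all genes tested were called lower and 20.6% higher (74.3% in either direction), and the median log2 fold change was -0.55 over the members and -0.24 over all genes. Members past the fold limit numbered 2 (Idh1 and Idh2), both lower, against 8.21% of all genes lower and 14.8% in either direction past it, and the groups did not overlap in 8 of 9 members and in 77.4% of all genes. Median-ratio scaling shifted the median of all genes by 0.23 and gave 3 higher members (Mdh2, Ogdh and Cs) and 6 lower. Of all genes, 32.9% were then higher and 32.6% lower.

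Idh2 was at 24.5, 24.7 and 27.2 FPKM in control Nlrp3-/- BMDMs and at 10.5, 9.64 and 10.9 after LPS+ATP, a fall of 1.22 on the log2 scale (SE 0.05, limma adjusted p = 3.12e-09). Idh1 went from 59.0, 90.3 and 52.1 FPKM to 32.1, 31.7 and 23.3, a fall of 1.16 (SE 0.21, limma adjusted p = 3.66e-04). The second control library held the highest Idh1 value of the genotype and the groups did not overlap. Idh3a went from 7.98, 8.55 and 8.44 to 5.34, 5.36 and 5.34 FPKM, a fall of 0.55 (SE 0.04, limma adjusted p = 5.50e-07). Mdh1 went from 35.3, 35.0 and 35.7 to 18.9, 19.3 and 16.3 FPKM, a fall of 0.93 (SE 0.08, limma adjusted p = 1.58e-06). These controls were tight and stood clear of the stimulated libraries. Mdh2 rose from 38.0, 38.2 and 38.0 to 48.3, 50.2 and 49.2 FPKM, by 0.36 (SE 0.03, limma adjusted p = 9.48e-07).

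Fh1 in Nlrp3-/- BMDMs went from 14.2, 13.9 and 14.4 to 7.50, 8.32 and 7.96 FPKM, a fall of 0.76 on the log2 scale (SE 0.05, limma adjusted p = 7.07e-08). Suclg1 went from 10.5, 11.4 and 11.3 to 8.16, 7.74 and 7.93 FPKM, a fall of 0.44 (SE 0.05, limma adjusted p = 2.06e-05). Both stood clear of their controls. Cs went from 34.3, 36.1 and 34.8 to 31.2, 29.3 and 30.9 FPKM, a fall of 0.20 (SE 0.04, limma adjusted p = 5.09e-04). With median-ratio scaling the change was a rise of 0.09, which passed (limma adjusted p = 0.0459). Ogdh, at 31.6, 28.4 and 29.5 against 26.3, 28.5 and 27.8 FPKM, overlapped between the states. Its fall of 0.11 (SE 0.05, limma adjusted p = 0.0451) was a rise of 0.18 with median-ratio scaling, which passed (limma adjusted p = 0.00568). The fall did not pass without Nlrp3-/- control replicate 1 (-0.07) or 3 (-0.12) or without LPS+ATP replicate 1 (-0.08) or 3 (-0.12).

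**Figure D2:**
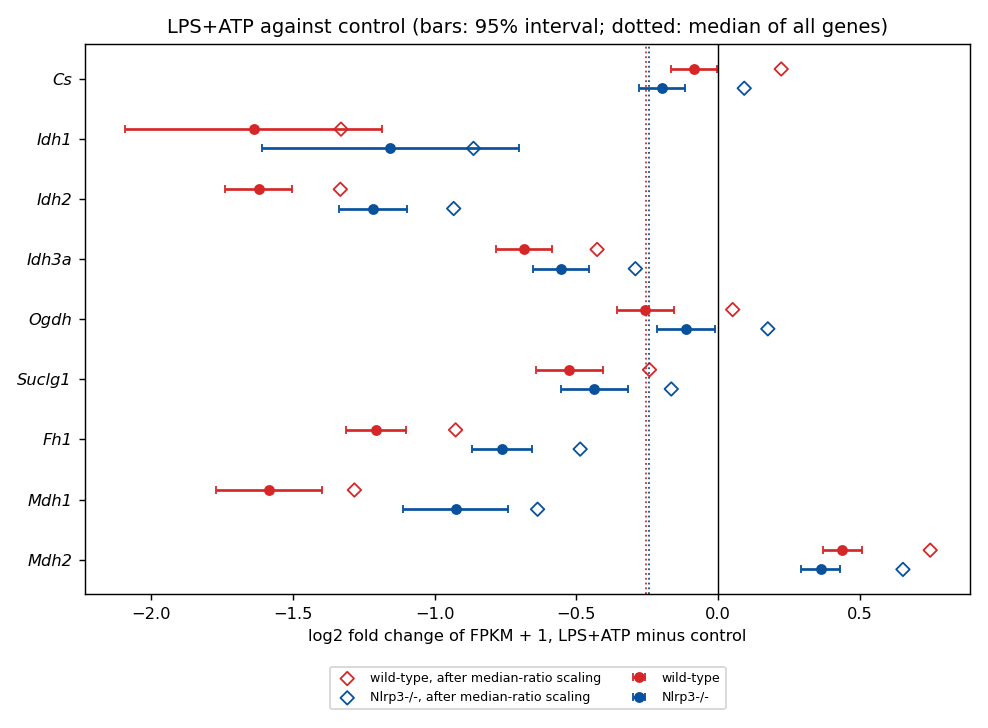
Log2 fold change of FPKM + 1 with LPS+ATP (x axis) for the 9 enzymes (y axis) in wild-type (red) and Nlrp3-/- BMDMs (blue), with 95% intervals from limma (filled), the values after median-ratio scaling (open diamonds) and the median of all genes (dotted lines). Idh1, Idh2, Mdh1 and Fh1 lay farthest to the left, Mdh2 lay right of 0 on both scales, and Cs and Ogdh lay on opposite sides of 0 on the 2 scales.

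The difference between the genotypes in the stimulation effect was tested directly as the interaction term of the same fit. It passed for 3 of the 9 members, all in the direction of a smaller fall in Nlrp3-/- BMDMs: Mdh1 (0.66, SE 0.12, limma adjusted p = 0.00190), Fh1 (0.44, SE 0.07, limma adjusted p = 6.70e-04) and Idh2 (0.40, SE 0.08, limma adjusted p = 0.00256). Of all genes tested, 27.7% had an interaction, 14.7% with a positive and 13.0% with a negative sign. The count of 3 of 9 is to be read against this frequent outcome. With median-ratio scaling the same 3 members passed, at 0.65, 0.44 and 0.40, beside 14.3% of all genes with a positive sign. No member's term reached the fold limit of 1, which 2.15% of all genes passed. In each of these 3 the Nlrp3-/- mean was below the wild-type mean in control and above it after LPS+ATP, but not all of these differences passed. That of Idh2 in control was -0.04 (limma adjusted p = 0.608), or -0.23 with median-ratio scaling, where it passed. After LPS+ATP those of Mdh1 (0.03) and Fh1 (0.13) did not pass with median-ratio scaling. For Idh1 the term was of like size, 0.48, but with a 95% interval of -0.16 to 1.12 it was not distinguishable from 0 (limma adjusted p = 0.258). The intervals of the others were -0.23 to 0.00 for Cs, -0.01 to 0.27 for Idh3a, 0.00 to 0.29 for Ogdh, -0.08 to 0.26 for Suclg1 and -0.17 to 0.02 for Mdh2, and none passed after adjustment. The markers of fibroblasts and of neutrophils or their precursors also differed between the genotypes after LPS+ATP (neutrophil sums of 109 to 126 in wild-type and 489 to 520 FPKM in Nlrp3-/- BMDMs after LPS+ATP, fibroblast sums of 191 to 193 and 927 to 942). Of 5 cycling cell markers, 4 had a positive interaction, like the 3 members, and 1 a negative one. With stimulation 4 were lower in wild-type and 5 in Nlrp3-/- BMDMs. Between genotypes 1 was higher and 0 lower in control, and 4 were higher and 1 lower after LPS+ATP. Their sums were 40.5 to 42.0 FPKM in wild-type control and 18.8 to 20.3 after LPS+ATP, and 44.1 to 47.9 and 23.9 to 24.8 in Nlrp3-/- BMDMs. The interaction was negative for 5 of 7 fibroblast and 5 of 7 neutrophil markers. The part of any of these in the terms of the members was not tested.

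The balance of cytosolic to mitochondrial isoenzyme was examined as the ratio of FPKM within each library, which does not depend on the scaling of the library. The level of such a ratio depends on the gene lengths used, but its fold change between groups does not. Per principal transcript, Mdh1 (60.0) stood below Mdh2 (81.3) in wild-type control, whereas on the merged-exon scale used here it stood above. For malate dehydrogenase, Mdh1 over Mdh2 was 1.33, 1.68 and 1.31 in wild-type control and 0.328, 0.321 and 0.358 after LPS+ATP, a geometric mean 4.28-fold lower. In Nlrp3-/- BMDMs it was 0.929, 0.916 and 0.939 in control and 0.392, 0.385 and 0.331 after LPS+ATP, 2.52-fold lower. Neither pair of groups overlapped, and both gave p = 0.1 in a two-sided exact permutation test, the smallest that 3 against 3 allows. In control the ratio was 1.54-fold lower in Nlrp3-/- than in wild-type BMDMs without overlap (exact permutation p = 0.1), and after LPS+ATP the genotypes overlapped (exact permutation p = 0.2).

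For isocitrate dehydrogenase, Idh1 over Idh2 had geometric means of 3.11 in wild-type control and 3.26 after LPS+ATP, and of 2.57 and 2.77 in Nlrp3-/- BMDMs. All 4 comparisons overlapped, with exact permutation p of 1.0 and 0.9 for stimulation and 0.7 and 0.4 for genotype. The log2 difference with stimulation was 0.07 in wild-type and 0.11 in Nlrp3-/- BMDMs, within a group SD of up to 0.47, and its sign turned when single libraries were left out (-0.13 without wild-type control replicate 1, -0.10 without Nlrp3-/- control replicate 3 and -0.01 without Nlrp3-/- LPS+ATP replicate 2). These 8 ratio tests form 1 family, and with a smallest p of 0.1 none could pass an adjusted threshold.

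**Figure D3:**
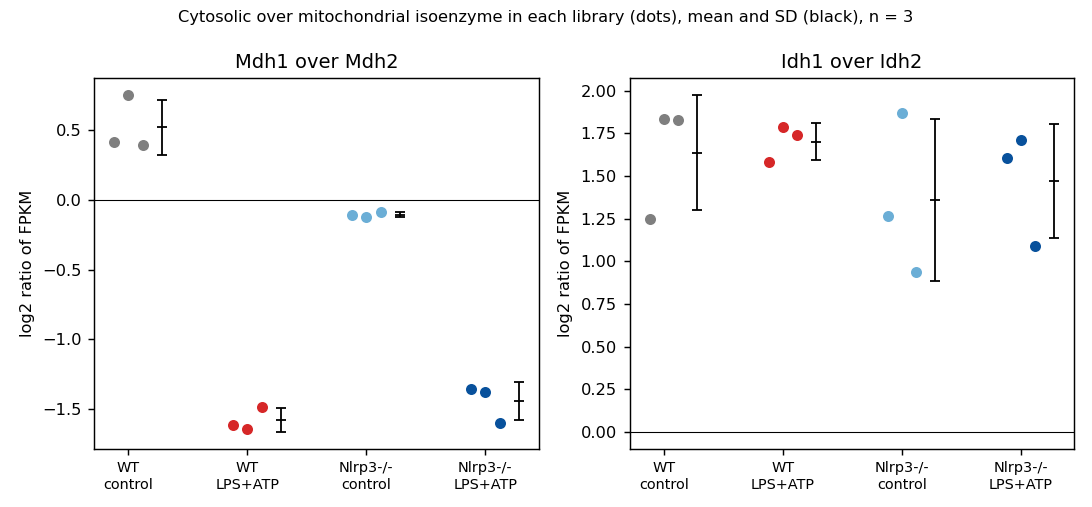
Log2 ratio of FPKM of the cytosolic over the mitochondrial isoenzyme (y axis) in each library (dots), by group (x axis), with mean and SD in black (n = 3). Mdh1 over Mdh2 lay below all controls in both LPS+ATP groups, and Idh1 over Idh2 overlapped among all 4 groups.

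Between the genotypes the largest called difference among the members was 0.47 on the log2 scale (Idh3a after LPS+ATP) and, with median-ratio scaling, -0.61 (Mdh1 in control), and the direction of several depended on the scaling. In control BMDMs, 2 of 9 were higher in Nlrp3-/- (Idh3a and Mdh2), 3 were lower (Mdh1, Ogdh and Fh1) and 4 did not pass, where 33.3% of all genes tested were higher, 14.5% lower and 47.8% called in either direction. The groups did not overlap in 6 of 9 members and in 56.0% of all genes, and the median log2 difference was -0.04 over the members and 0.09 over all genes. None of the members, and 6.71% of all genes, passed the fold limit. Median-ratio scaling shifted the latter by -0.15 and gave 1 member higher (Idh3a) and 5 lower, with 18.5% of all genes higher and 30.1% lower.

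Idh3a was higher in Nlrp3-/- control libraries by 0.34 on the log2 scale (SE 0.04, limma adjusted p = 6.43e-05), with every one of them above every wild-type control, and the difference was 0.17 with median-ratio scaling. Mdh1 was lower by 0.42 (SE 0.08, limma adjusted p = 0.00164), or by 0.61 with median-ratio scaling, and Ogdh was lower by 0.25 (SE 0.05, limma adjusted p = 0.00101), or by 0.44. These 3 kept their call on both scales. Mdh2 was higher by 0.19 (SE 0.03, limma adjusted p = 3.73e-04) but differed by -0.0034 after median-ratio scaling. Fh1 was lower by 0.13 (SE 0.05, limma adjusted p = 0.0490), or by 0.31 with median-ratio scaling, and on the main scale it did not pass without Nlrp3-/- control replicate 1, 2 or 3 or without wild-type control replicate 1 or 3 (differences of -0.14 to -0.10).

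Idh1 in control differed by -0.31 between the genotypes with a 95% interval of -0.77 to 0.14 (limma adjusted p = 0.242), and without Nlrp3-/- control replicate 2, the library at 90.3 FPKM, it was -0.54 and passed (limma adjusted p = 0.0300). Idh2 differed by -0.04 (95% interval -0.16 to 0.08), and by -0.23 with median-ratio scaling, where it passed (limma adjusted p = 0.00389), and Suclg1 by 0.08 (-0.04 to 0.19). Cs differed by 0.09 (0.01 to 0.18, limma adjusted p = 0.0541), and by -0.10 with median-ratio scaling, where it passed (limma adjusted p = 0.0455).

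After LPS+ATP, 6 of 9 members were higher in Nlrp3-/- BMDMs, 0 were lower (1 at an unadjusted p under 0.05) and 3 did not pass, where 35.9% of all genes tested were higher, 12.6% lower and 48.5% called in either direction. The groups did not overlap in 7 of 9 members and in 57.9% of all genes, and the median difference was 0.17 over the members and 0.11 over all genes. None of the members, and 5.05% of all genes, passed the fold limit. Median-ratio scaling shifted the latter by -0.17 and gave 2 members higher (Idh3a and Idh2) and 3 lower, with 21.5% of all genes higher and 29.7% lower.

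Idh3a was again higher, by 0.47 on the log2 scale (SE 0.04, limma adjusted p = 5.23e-06), or 0.30 with median-ratio scaling. Idh2 was higher by 0.37 (SE 0.05, limma adjusted p = 1.89e-04), or 0.17, and both passed on either scale. Fh1 was higher by 0.32 (SE 0.05, limma adjusted p = 2.40e-04), but with median-ratio scaling its difference of 0.13 narrowly missed the threshold (limma adjusted p = 0.0524). Mdh1 was higher by 0.24 (SE 0.08, limma adjusted p = 0.0364) and Suclg1 by 0.16 (SE 0.05, limma adjusted p = 0.0263), and with median-ratio scaling they differed by 0.03 and -0.03. The call of Mdh1 was lost without replicate 1 or 2 of either LPS+ATP group (0.20 to 0.22), and that of Suclg1 without Nlrp3-/- LPS+ATP replicate 1 or 3 or wild-type LPS+ATP replicate 2 or 3 (0.14 to 0.17). Mdh2 was higher by 0.11 (SE 0.03, limma adjusted p = 0.0101) and lower by 0.10 after median-ratio scaling, where it also passed (limma adjusted p = 0.0262). Ogdh (-0.10, 95% interval -0.20 to -0.00), Cs (-0.02, -0.10 to 0.06) and Idh1 (0.17, -0.28 to 0.62) did not pass, and with median-ratio scaling Ogdh and Cs were lower by 0.31 and 0.23 and passed. The 4 genotype and stimulation comparisons share libraries in pairs, so that a high or low group enters more than 1 of them.

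**Figure D4:**
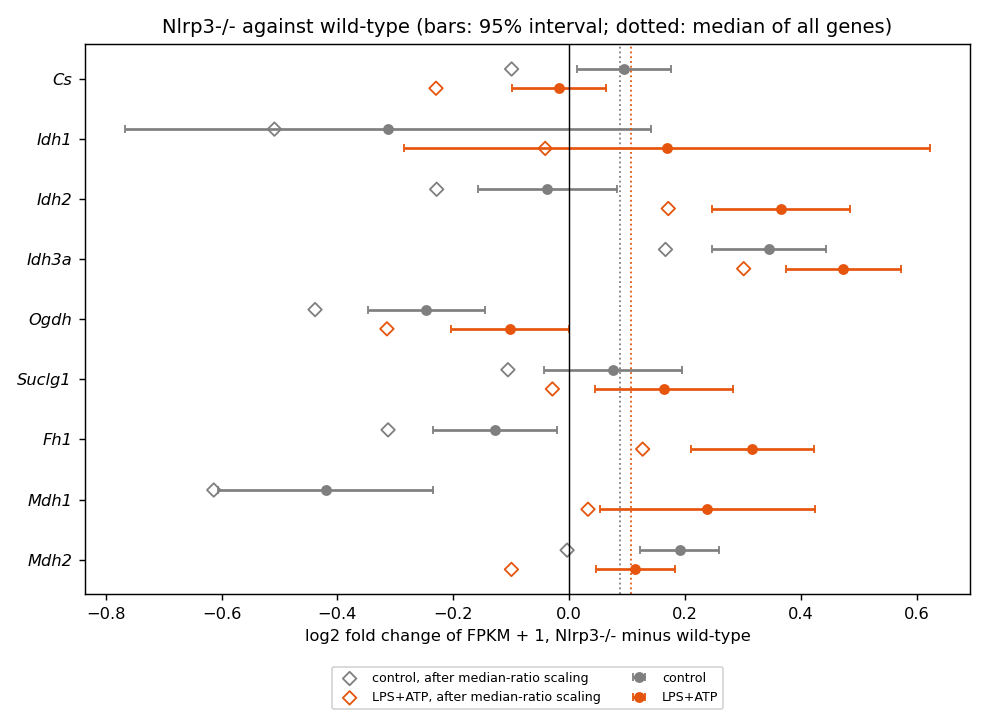
Log2 difference of FPKM + 1 between Nlrp3-/- and wild-type BMDMs (x axis) for the 9 enzymes (y axis) in control (grey) and after LPS+ATP (orange), with 95% intervals from limma (filled), the values after median-ratio scaling (open diamonds) and the median of all genes (dotted lines). Idh3a lay right of 0 in both states on both scales, whereas Mdh2 and Suclg1 crossed 0 with the scaling in both states.

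Beside the members, 12 other genes were examined, namely those that complete the steps of the cycle and Aco1, whose product is cytosolic. All 12 passed the filter. In wild-type BMDMs LPS+ATP lowered 11 and raised 1, where 53.1% of all genes tested were lower and 23.3% higher. The 1 raised was Dld, the dihydrolipoamide dehydrogenase shared by several 2-oxoacid dehydrogenase complexes (0.34 on the log2 scale, SE 0.04, limma adjusted p = 4.91e-06). With median-ratio scaling the split was 2 higher and 7 lower, against 34.9% and 36.3% of all genes. The median of the 12 was -0.65, against -0.25 for all genes. The largest falls were in Suclg2 (-1.27), which pairs with Suclg1 in the GTP-forming succinyl-CoA synthetase, in Idh3g (-1.18), a regulatory subunit beside Idh3a, and in Sdha (-0.98), the flavoprotein of succinate dehydrogenase. Its other subunits fell by 0.90 (Sdhc), 0.49 (Sdhd) and 0.40 (Sdhb). Aco1, the cytosolic aconitase that also acts as iron regulatory protein, fell by 0.91.

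In Nlrp3-/- BMDMs, 10 of the 12 were lowered and Dld was raised (0.13), where 53.8% of all genes were lower and 20.6% higher. Dlst, the succinyltransferase of the 2-oxoglutarate dehydrogenase complex, did not pass (-0.04). With median-ratio scaling 3 were higher and 7 lower, against 32.9% and 32.6% of all genes. The interaction was positive for 6 of the 12, Suclg2 (0.74), Sdha (0.44), Idh3b (0.40), Idh3g (0.39), Sdhc (0.27) and Aco1 (0.24), and negative for Dld (-0.22), with the same counts under median-ratio scaling. Over all genes, the interaction was positive in 14.7% and negative in 13.0%. Between genotypes in control, 2 were higher and 5 lower, or 0 and 9 with median-ratio scaling. Over all genes these shares were 33.3% and 14.5%, or 18.5% and 30.1%. After LPS+ATP 4 were higher and 0 lower, or 1 and 5 with median-ratio scaling, and Suclg2 was the largest of them (0.92). Over all genes 35.9% were then higher and 12.6% lower, or 21.5% and 29.7%.

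The counts in the lists that follow are to be read against the same shares of all genes tested. Of these, 23.3% rose and 53.1% fell with stimulation in wild-type and 20.6% and 53.8% in Nlrp3-/- BMDMs. Between genotypes 33.3% were higher and 14.5% lower in control, and 35.9% and 12.6% after LPS+ATP. A positive interaction was found in 14.7% and a negative one in 13.0%. Genes of pyruvate entry into the cycle and of its regulation (13, all tested) divided. They include pyruvate dehydrogenase kinases and phosphatases, so that their counts have no single sense for pyruvate entry. Stimulation raised 2 and lowered 8 in wild-type and raised 2 and lowered 9 in Nlrp3-/- BMDMs, or raised 5 and lowered 6 in both with median-ratio scaling. Pcx, pyruvate carboxylase, which makes oxaloacetate from pyruvate, rose by 2.26 (wild-type) and 1.82 (Nlrp3-/-), the other riser being Pdk3, a pyruvate dehydrogenase kinase, at 0.60 and 0.19. On the log2(FPKM + 1) scale the largest falls were in Pdp1, a pyruvate dehydrogenase phosphatase (-1.47 and -1.38), Pdk2 (-1.22 and -1.21) and Pdk4 (-1.0 and -1.58). Pdk4 was low, with group means of 1.33 FPKM in control and 0.162 after LPS+ATP in wild-type and of 4.43 and 0.824 in Nlrp3-/- BMDMs, and with a pseudocount of 0.1 its falls were the largest of the 3 (-2.48 and -2.30). Between genotypes 5 were higher and 2 lower in control, and 6 higher and 1 lower after LPS+ATP (4 and 5, then 3 and 4, with median-ratio scaling), led by Pdk4 (1.22 and 0.65). The interaction was positive for 1, Pdp2 (0.68), and negative for 3, Pcx (-0.45), Pdk3 (-0.41) and Pdk4 (-0.57), but that of Pdk4 was 0.18 and did not pass with a pseudocount of 0.1 (limma adjusted p = 0.709).

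Of 6 genes that link glutamine and aspartate to the cycle, LPS+ATP lowered 5 and raised 1 in wild-type and lowered 4 and raised 1 in Nlrp3-/- BMDMs (4 and 1, then 3 and 1, with median-ratio scaling). Glud1, glutamate dehydrogenase, fell by 1.24 and 0.79, and Oat, ornithine aminotransferase, fell by 1.06 in wild-type. Gpt2, which makes 2-oxoglutarate from glutamate and pyruvate, rose by 0.21 and 0.20. The interaction was positive for 3 of the 6, Got1 (0.78), the cytosolic partner of Mdh1 in the malate-aspartate shuttle, Oat (0.67) and Glud1 (0.45). Between genotypes 2 were higher and 1 lower in control and 5 higher and 0 lower after LPS+ATP (1 and 1, then 2 and 0, with median-ratio scaling).

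**Figure D5:**
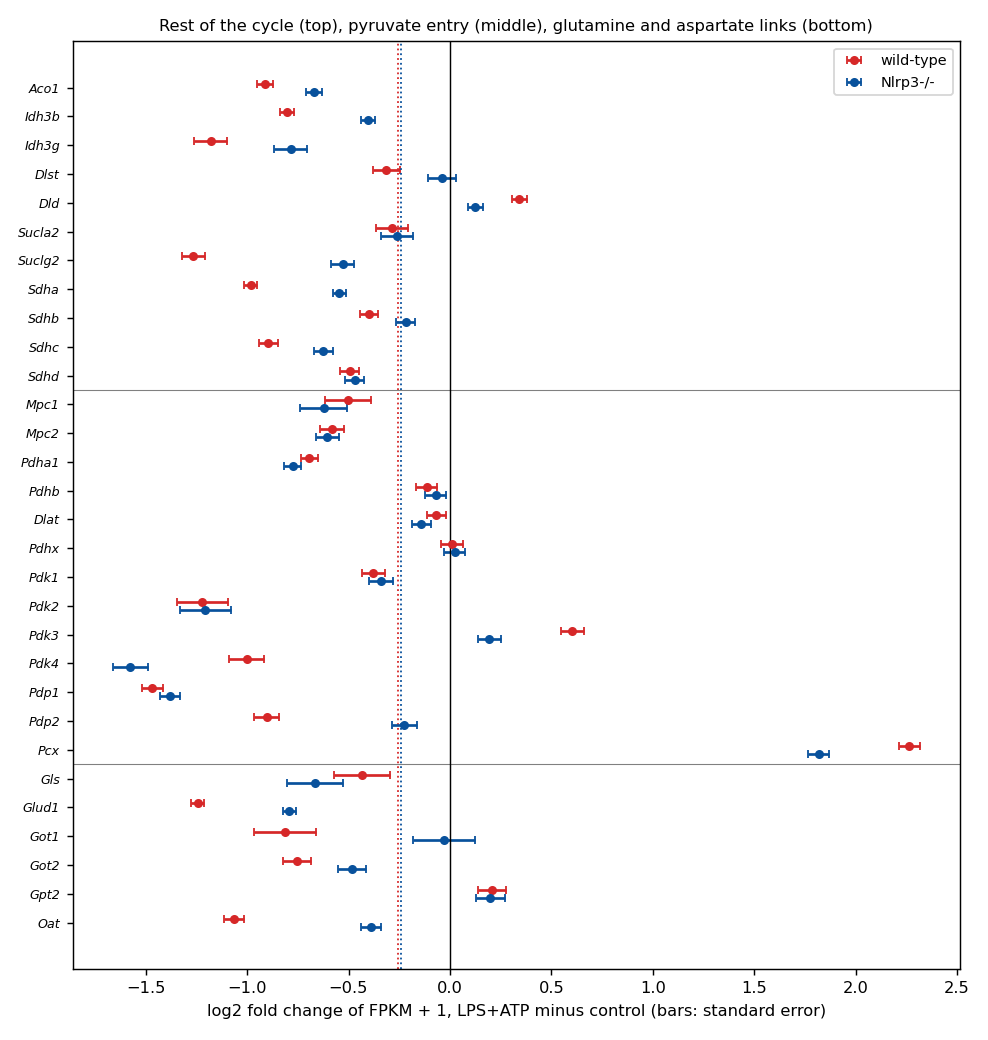
Log2 fold change of FPKM + 1 with LPS+ATP (x axis, bars SE) in wild-type (red) and Nlrp3-/- BMDMs (blue) for 11 of the 12 other cycle genes (top), 13 genes of pyruvate entry (middle) and 6 genes linking glutamine and aspartate (bottom, y axis), with the median of all genes as dotted lines. Pcx lay farthest right at 2.26 and 1.82, and among the other cycle genes drawn only Dld lay right of 0 in both genotypes.

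Of 10 genes for carriers of citrate, malate and related metabolites and for enzymes that draw on cycle intermediates, in the cytosol or in mitochondria, 3 rose and 5 fell in wild-type and 4 rose and 3 fell in Nlrp3-/- BMDMs (5 and 3, then 6 and 2, with median-ratio scaling). Acod1, which converts the cycle intermediate cis-aconitate to itaconate, rose by 8.31 and 6.24 on the log2 scale and had the largest negative interaction of the list (-2.07, SE 0.06, limma adjusted p = 7.49e-09). Me1, cytosolic malic enzyme, rose by 1.36 and 0.48, and Slc25a12, an aspartate-glutamate carrier, by 0.68 and 0.15. Acly, which splits exported citrate, fell by 0.87 and 0.55. Slc25a10, the dicarboxylate carrier, fell by 0.58 in wild-type and rose by 0.21 in Nlrp3-/- BMDMs, with an interaction of 0.79 (SE 0.08, limma adjusted p = 4.94e-05). The interaction passed for 2 genes in the positive and 3 in the negative direction, and between genotypes 7 were higher and 3 lower in control and 6 higher and 3 lower after LPS+ATP (5 and 3, then 5 and 4, with median-ratio scaling).

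Of 5 genes of 2-hydroxyglutarate removal and lipoylation, 4 fell in each genotype and none rose (1 rose and 3 fell in wild-type and 2 fell in Nlrp3-/- BMDMs with median-ratio scaling). D2hgdh, which oxidizes D-2-hydroxyglutarate back to 2-oxoglutarate, fell by 0.93 in wild-type and by 0.65 in Nlrp3-/- BMDMs. By limma 0 of the 5 were called between genotypes in control (2 at an unadjusted p under 0.05), 2 were higher after LPS+ATP (0 higher and 1 lower in each state with median-ratio scaling), and 0 had an interaction (1 at an unadjusted p under 0.05). Of 12 genes of mitochondrial content, 11 were tested, Ppargc1a being too low. In wild-type BMDMs 4 rose and 5 fell and in Nlrp3-/- BMDMs 4 rose and 6 fell (5 and 3 in each with median-ratio scaling), with Esrra, a nuclear receptor that drives mitochondrial genes, rising by 0.69 and 0.48 and Gabpa, a subunit of an ETS-family activator of such genes, falling by 0.70 and 0.75. Tomm20, an outer membrane import receptor, fell by 0.60 and 0.47, and the matrix chaperone Hspa9 rose by 0.54 and 0.28. Between genotypes 4 were higher and 1 lower in control and 5 higher and 2 lower after LPS+ATP (2 and 3, then 1 and 4, with median-ratio scaling), and 2 had a negative interaction.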

How the data were processed

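The authors extracted total RNA with Trizol, made libraries with an Illumina TruSeq kit and deposited 1 table of gene FPKM for the 12 libraries, with no counts. The submitters' processing notes name GRCm39 and DESeq2 1.24.0, and the aligner and counter were not given in the sources used here. The deposited gene FPKM divided by merged exon length in 9674 of the 9792 genes where this could be checked (98.8%), so that genes with long alternative exons are listed lower per transcript. Each library is scaled to its own total, so an FPKM is a share of that library. Depth is unknown, and no interval for counting error could be given.

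Groups followed the labels, 3 libraries each. Genes with at least 1 FPKM in at least 3 of 12 libraries were tested (12622 of 55335) on log2(FPKM + 1), which understates fold changes of low genes, with 1 limma 3.58.1 model of 4 group means with a variance trend (R 4.3.3), 95% intervals and Benjamini-Hochberg adjustment over all genes tested. The script was tested on simulated data. Isoenzyme ratios were tested by two-sided exact permutation (scipy 1.17.1). The alternatives were a pseudocount of 0.1, no filter or one of 5 FPKM, median-ratio or upper-quartile scaling, TPM, no trend, the compared groups alone, the replicate number as a block, a fold limit, leaving out each library and, chosen after seeing the data, the principal transcript length.

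The 9 members and all gene lists were chosen with earlier results of these data known. The text names every member, any of the 12 other cycle genes, and from each other list up to 3 called genes with the largest fold in each direction of a comparison. Of the 58 listed genes 57 were tested. The macrophage list held 7 genes, of which Itgam, with more than 1 row, was left out of the sum. Markers of B cells summed to 0.431 to 4.71 FPKM, erythroid markers to 0.828 to 12.6 and cycling cell markers to 18.8 to 47.9, and their part in the results was not tested. No sign of pairing by replicate number was seen, which does not exclude it. Values of some single genes are not reported here.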

Additional observations from a re-analysis of the deposited data

Results flagged for a closer look

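In 3 of the 9 enzymes the effect of LPS+ATP differed between the genotypes by the interaction term of limma: Mdh1 (0.66 on the log2 scale), Fh1 (0.44) and Idh2 (0.40). Each is the fold change in Nlrp3-/- BMDMs minus that in wild-type BMDMs, and each was positive because the fall was smaller in Nlrp3-/- BMDMs. The 3 terms passed under every alternative that was run other than the fold limit of 1, which none of them reached. Of all genes tested, 27.7% had such a term in either direction and 14.7% a positive one. The count of 3 of 9 is not far from the share in either direction. Groups of 3 libraries are too small for a test of single outlying libraries.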

How the results depend on the processing

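Of 720 member values recomputed under the alternatives, 660 kept their direction and their side of the threshold, 34 no longer passed, 11 came to pass and 15 turned direction. With median-ratio scaling, log2 values turned for Cs (0.22 with stimulation in wild-type, 0.093 in Nlrp3-/-, -0.10 for genotype in control), Ogdh (0.052 and 0.18 with stimulation), Suclg1 (-0.11 and -0.029 for genotype in control and after LPS+ATP), Mdh2 (-0.0034 and -0.10) and Idh1 (-0.041 after LPS+ATP). With upper-quartile scaling they turned for Cs (0.085, stimulation in wild-type), Ogdh (0.010, stimulation in Nlrp3-/-) and Mdh2 (-0.0037, genotype after LPS+ATP), and with TPM for Cs (0.0044, genotype after LPS+ATP). That difference of Cs ranged from -0.036 to 0.0096 when single libraries were left out. Both rescalings move all genes of a library together; other causes were not tested.

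The log2 Idh1 over Idh2 ratio with stimulation was -0.017 with a pseudocount of 1 in wild-type BMDMs, and ranged from -0.13 to 0.16 in wild-type and from -0.10 to 0.37 in Nlrp3-/- BMDMs when single libraries were left out. Under the fold limit of 1, members called numbered 4 and 2 for stimulation in wild-type and Nlrp3-/-, 0 for genotype in control, 0 after LPS+ATP and 0 for the interaction, and genes of the other lists 10, 5, 3, 1 and 1, since the limit removes smaller changes by construction. Leaving out single libraries gave 8 to 9 members called for stimulation in each genotype, 4 to 5 for genotype in each state and 3 for the interaction.

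The replicate numbers gave no sign of pairing: none of 18 same-numbered pairs of deviations correlated above 0.1 (r from -0.06 to 0.05). Low correlations of this kind cannot exclude a pairing. With the replicate number as a block, 8, 8, 4, 6 and 3 members were called in the 5 comparisons, against 8, 9, 5, 6 and 3 without it. The calls lost under the block were Ogdh for stimulation in Nlrp3-/- (limma adjusted p = 0.0708) and Fh1 for genotype in control (0.0793). With 3 libraries a group and no counts, calls as close to the threshold as these rest on single libraries or settings.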

Other observations

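As a description over the 12 libraries, which share group differences and so correlate for many genes, the genes with profiles most like each enzyme on the log2 scale were Synj2bp (Pearson r = 0.956) and Cdk17 (0.956) for Cs, Nck2 (0.982) and Snrnp200 (0.978) for Idh1, Adk (0.997) for Idh2, and Hnrnpa0 (0.995) and Amd1 (0.995) for Idh3a. For Ogdh they were Unc93b1 (0.970) and Rilpl2 (0.961), for Suclg1 Vsig10 (0.991) and Tmem218 (0.991), for Fh1 Taf9b (0.996) and Asph (0.996), for Mdh1 Nop53 (0.993) and Oaz1-ps (0.993), and for Mdh2 S1pr3 (0.995) and Lrp8 (0.994).

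Nnt encodes the mitochondrial transhydrogenase that passes hydride between NADH and NADPH. It is known to carry a deletion in the C57BL/6J substrain and was chosen after its values were seen. Its values were 4.09 to 10.3 FPKM in the 6 wild-type libraries and 0.670 to 1.47 in the 6 Nlrp3-/- libraries, without overlap. As with donor sex, genotype cannot be told apart from the supplier of the mice or from any difference in substrain. The part of either in the results was not tested.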
